A study of Homo sapiens with 3 samples.

Results

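PTPRN2 and PTPRD encode receptor-type tyrosine phosphatases, membrane proteins with an outer domain and phosphatase domains inside the cell. Both genes were examined for peaks of YBX1, which binds nucleic acids through its cold-shock domain, in HEL cells, an established human erythroleukaemia line that carries a mutated JAK2 gene. The data came from untreated HEL cells crosslinked with formaldehyde: 2 immunoprecipitations with an antibody against YBX1 (replicates 1 and 2) and 1 input library of sheared chromatin that served as control for both. Separate cultures for the replicates are not stated in the labels, so the spread between them may be technical, and all values describe a single cell line. A peak was a member when the symbols that the authors' annotation gives it include PTPRN2 or PTPRD. This gave 153 peaks of 40159 in both lists together, 97 for PTPRN2 and 56 for PTPRD. The replicate 1 list held 61 PTPRN2 and 35 PTPRD peaks among 22874, and the replicate 2 list held 36 and 21 among 17285. The genes were chosen by their number of peaks in these same lists, so their counts are a description and carry no test.

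PTPRN2, also known as phogrin or IA-2 beta, sits in the membrane of dense-core secretory vesicles of neuroendocrine cells and neurons, where it is known for a role in regulated secretion. Its phosphatase domain has little or no activity towards phosphotyrosine. PTPRD belongs to the LAR family, whose outer domains bind partners across the synapse and whose inner domains bind liprins. PTPRD can dephosphorylate STAT3 and is recorded as a tumour suppressor in several cancers. Whether either gene is expressed in HEL cells was not measured here.

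Inside the genes, PTPRN2 carried 58 peaks in replicate 1 and 35 in replicate 2, and PTPRD carried 34 and 21. By this count PTPRN2 ranked 3 of 3361 genes with a peak inside in replicate 1 and 3 of 2746 in replicate 2, where CAMTA1 tied with it at 35 peaks, and PTPRD ranked 6 and 17. Just above PTPRD in replicate 1 stood SHANK2 with 36 peaks and just below it CSMD1 with 32. Long genes can hold more peaks, and these ranks make no allowance for length. All of the peaks inside both genes lay in introns, and 0 lay in a promoter or an exon in either list. A further 3 PTPRN2 peaks in replicate 1 and 1 in replicate 2 were classed as intergenic, as was 1 PTPRD peak in replicate 1.

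PTPRN2 peaks were packed into a few repeat arrays, whereas PTPRD peaks were spread thinly over a longer stretch. PTPRN2 peaks spanned 898237 bp of chromosome 7 (157489769 to 158388005, hg19), at 67.9 peaks per Mb in replicate 1 and 40.1 in replicate 2. PTPRD peaks spanned 2320787 bp of chromosome 9 (8287224 to 10608010), at 15.1 and 9.48 peaks per Mb, counting every peak of the window. In the 1 Mb on the lower-coordinate side of the PTPRN2 span there were 5 and 7 peaks, and on the other side 10 and 5. The window on that other side was set at 1 Mb but runs past the end of chromosome 7, so it covers less. The corresponding flanks of PTPRD held 10 and 3 peaks and 12 and 12 peaks. PTPRN2 peaks were denser than those of both flanks in both replicates. The PTPRD density lay within the range of its flanks in replicate 2 and above both in replicate 1. The genes were chosen by their number of peaks, and each span ran from its first to its last peak. A higher density inside is therefore partly set by that choice and is a description only.

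**Figure D1:**
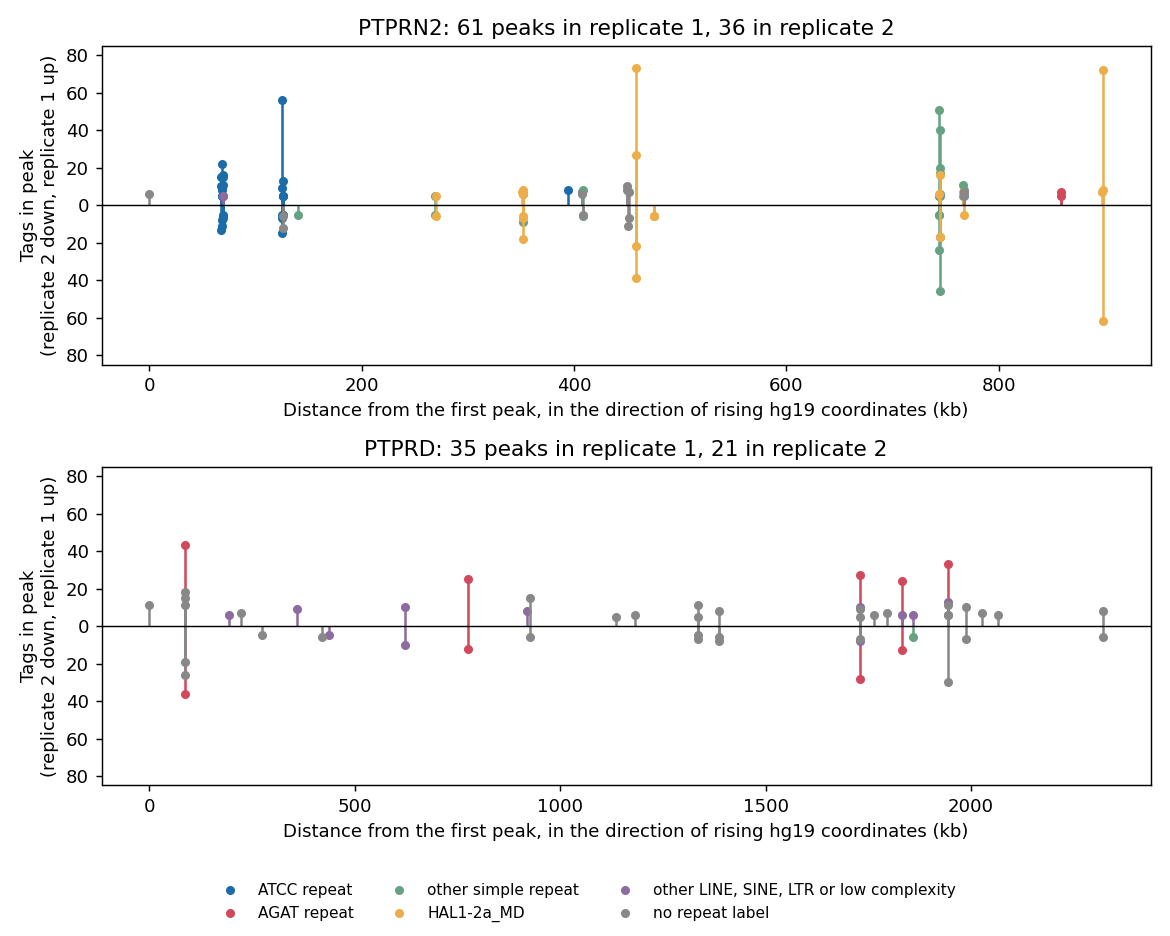
Tags in each peak (vertical axis, replicate 1 upwards and replicate 2 downwards) against distance in kb from the first peak, for PTPRN2 (top) and PTPRD (bottom), with colours for the repeat label. PTPRN2 peaks stand in stacks on ATCC repeats, other simple repeats and HAL1-2a_MD elements, and the 5 tallest PTPRD peaks of replicate 1 are on AGAT repeats among many low peaks with no repeat label.

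Tandem repeats are short units copied head to tail, and the same unit can be written from either strand or from any of its bases. Units are given here as the annotation writes them, and grouped over rotations and strands, so that TCCA and TGGA both count as ATCC, TCTA and TAGA as AGAT, and ATGGTG and CACCAT as ACCATC. Of the PTPRN2 peaks, 36 of 61 in replicate 1 (59%, 95% Wilson interval 46.5% to 70.5%) and 20 of 36 in replicate 2 (55.6%, 39.6% to 70.5%) carried a simple tandem repeat label. Over the whole lists the share was 51.2% and 58.9%, so the PTPRN2 share was near the background. Of the PTPRD peaks, 5 of 35 (14.3%, 6.26% to 29.4%) and 5 of 21 (23.8%, 10.6% to 45.1%) carried one, and these intervals lie below the share over each list. Intervals cover counting error only, and peaks of 1 gene share a library and a locus, so no test was made over them.

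The units differed between the genes. Among PTPRN2 peaks in replicate 1, 18 were on ATCC repeats, of which 17 were written as TCCA and 1 as TGGA. The ACCATC unit followed with 6 peaks, the ATC unit (written CAT) with 4, the ACC unit (written TGG) with 3 and the AGAT unit with 2. In replicate 2, PTPRN2 had 11 peaks on ATCC repeats, all of them written as TCCA. It had 5 on the ACCATC unit and 0 on the AGAT unit. In PTPRD, AGAT had 5 of the 5 repeat peaks in replicate 1 and 4 of 5 in replicate 2, and ATCC had 0 in either. The fifth PTPRD repeat peak of replicate 2 was on a CATA repeat with 6 tags.

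HAL1-2a_MD, a label of the LINE class of transposable elements, marked 16 of 61 PTPRN2 peaks in replicate 1 (26.2%, 16.8% to 38.4%) and 11 of 36 in replicate 2 (30.6%, 18% to 46.9%). Over the whole lists 3.38% and 3.33% of peaks carried it, and of the PTPRD peaks 0 of 35 and 0 of 21 did. It stood beside CAT or ATGGTG repeats at 4 PTPRN2 sites and without them at 3. Several of these peaks were neighbours at the same site, whereas the intervals count each peak as separate. LINE labels of PTPRD were of other types, L2 and L1, with 6 peaks in replicate 1 and 3 in replicate 2. Peaks with no repeat label made up 21 of the 35 and 13 of the 21 PTPRD peaks, against 8 of 61 and 5 of 36 for PTPRN2.

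**Figure D2:**
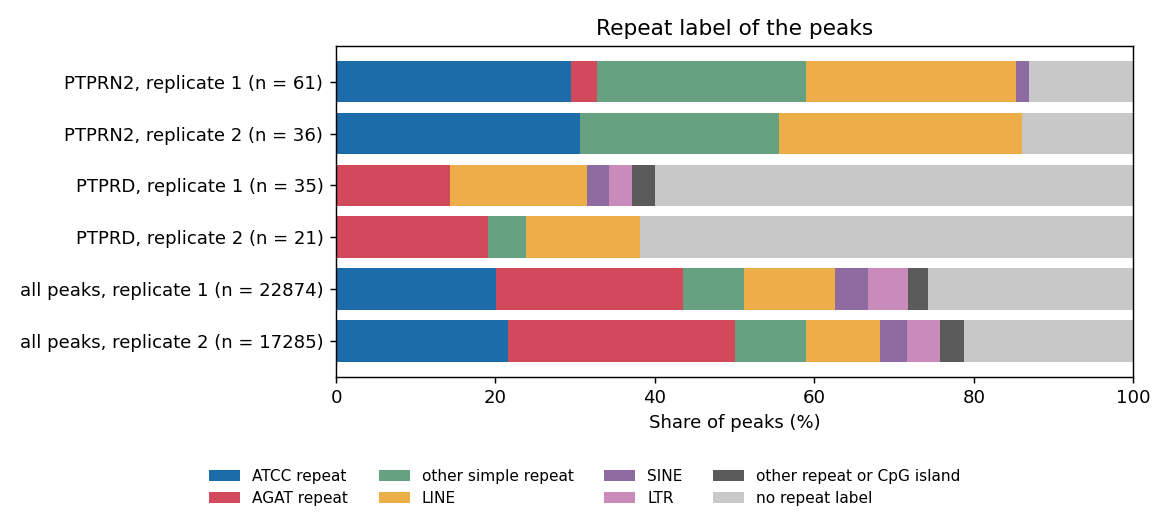
Share of peaks in percent by repeat label for PTPRN2, PTPRD and all peaks of each list, with replicates 1 and 2 as separate bars. ATCC repeats and LINE labels fill most of the PTPRN2 bars, AGAT is the main tandem repeat of PTPRD, and 21 of 35 and 13 of 21 PTPRD peaks have no repeat label.

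The PTPRN2 peak with the most tags and the highest fold in replicate 1 lay on a HAL1-2a_MD element of an intron, on chromosome 7 from 157948109 to 157948362 in replicate 1 and from 157948121 to 157948385 in replicate 2. It held 73 tags in replicate 1 and 39 in replicate 2, and its fold enrichment was 202 and 109. Fold enrichment is the authors' own value for each peak, the ChIP tags at the summit over the background. In replicate 2 other PTPRN2 peaks exceeded it, by tags with 62 and 46 and by fold with 150. A second peak followed directly, with 27 and 22 tags, so the site held 100 and 61 tags within 432 bp. Both replicates listed 2 peaks there, and each overlapped a peak of the other list.

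A site was a chain of peaks of both lists with gaps of at most 2000 bp, a distance chosen after the values were seen. The PTPRN2 site with the most tags ran from 158233173 to 158234865 and carried ATGGTG, TGG and HAL1-2a_MD labels. It had 10 peaks with 171 tags in replicate 1 and 6 peaks with 114 tags in replicate 2, and the highest fold enrichment was 148 and 150. Its ATGGTG peak starting at 158233819 held 51 tags in replicate 1, and 2 replicate 2 peaks of 24 and 5 tags overlapped it. The largest replicate 2 peak of the site, starting at 158234465, held 46 tags over 296 bp and overlapped 2 replicate 1 peaks of 40 and 17 tags, so the lists cut the same stretch differently. A neighbouring site from 158256012 to 158257273, with CACCAT, CAT and HAL1-2a_MD labels, had 9 peaks with 63 tags in replicate 1 but 1 peak with 5 tags in replicate 2. Its ratio of replicate 2 to replicate 1 tags, 0.0794, was the lowest of the PTPRN2 and PTPRD sites found in both.

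All PTPRN2 peaks labelled TCCA lay in a pair of arrays, and the 1 TGGA peak, of 8 tags in replicate 1 alone, stood apart at 157884444 to 157884514. The first array, from 157557528 to 157559359, had 12 peaks with 126 tags in replicate 1, of which 1 peak of 5 tags was on a MIR element, and 6 peaks with 50 tags in replicate 2. The second, from 157614624 to 157615766, had 6 peaks with 93 tags and 7 peaks with 55 tags. In the second array replicate 1 listed a peak of 397 bp with 56 tags, the widest of either gene, and 3 replicate 2 peaks of 7, 15 and 12 tags overlapped it. Of the replicate 2 peaks in this array, 2 carried no repeat label and were placed in intron 11 of 21 of transcript NM_130842, although both overlapped TCCA peaks of replicate 1. Across all of PTPRN2, the ATCC peaks had a median fold enrichment of 53.9 and 54.4, and all ATCC peaks of the lists had 67 and 54.4.

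An intergenic PTPRN2 peak had many tags and a modest fold. It lay on HAL1-2a_MD from 158387901 to 158388005 in replicate 1 and from 158387886 to 158388005 in replicate 2, and the annotation also names NCAPG2, MIR595 and MIR5707 for it. It held 72 and 62 tags, and its fold enrichment was 40.4 and 41.2, against 202 and 109 for the intronic HAL1-2a_MD peak with 73 and 39 tags. It thus had nearly as many tags as that peak in replicate 1 and more in replicate 2, at a lower fold in both. Neither of its folds was a whole multiple of the genome-wide background, so the local input set the background there.

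At the low end, a PTPRN2 site from 157939705 to 157941833 in intron 5 of transcript NM_130842 had no repeat label and 5 peaks of 7 to 11 tags. Its fold enrichments, at most 13.6 in replicate 1 and 14.3 in replicate 2, included the lowest of either gene, 11 and 12.8. No peak of this site overlapped one of the other replicate. Of all PTPRN2 peaks without a repeat label, 0 of 8 in replicate 1 and 2 of 5 in replicate 2 (both in the second TCCA array) overlapped a peak of the other list. Of those on simple repeats 18 of 36 and 15 of 20 did, and of those on HAL1-2a_MD 10 of 16 and 9 of 11. Over the whole lists, all labels together, the share was 54% and 77.6%. The peaks on simple repeats and on HAL1-2a_MD were near that share, and the unlabelled ones were below it on few peaks. Shares of each label over the lists are not given here, and no test was made.

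The PTPRD peak with the most tags in each list was on an AGAT repeat. It lay on a TCTA repeat of chromosome 9, from 8373813 to 8373924 in replicate 1 and from 8373825 to 8373917 in replicate 2, and held 43 and 36 tags with fold enrichments of 72.3 and 64.4. Peaks without a repeat label stood on both sides of it, with 15 and 18 tags in replicate 1 and 19 and 26 tags in replicate 2. With a further unlabelled replicate 1 peak of 11 tags that overlapped none of replicate 2, the site held 87 and 81 tags. The replicates were closest here among the PTPRD sites with over 20 tags. The annotation placed the unlabelled peaks in intron 24 of 30 of transcript NM_130392.

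A TAGA repeat from 10016359 to 10016432 in replicate 1 and from 10016351 to 10016444 in replicate 2 gave the highest PTPRD fold enrichments, 82.9 and 70.8, with 27 and 28 tags. Its flanks carried unlabelled peaks in intron 4 of 45 of transcript NM_002839 and a peak on an L1MC4 element, with 10 tags in replicate 1 and 8 in replicate 2. TCTA repeats at 9062469 to 9062602 and at 10118150 to 10118257 held 25 and 24 tags in replicate 1. In replicate 2 they held 12 and 13. At a further TCTA repeat, from 10230355 to 10230509, replicate 1 listed a peak of 33 tags, and the overlapping replicate 2 peak of 30 tags (10230278 to 10230497) was wider and was labelled as intron 3 with no repeat. A label is given per peak, so the same stretch can count as a repeat in one list and not in the other.

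PTPRD peaks without an AGAT label were mostly low. All those with no repeat label, including the ones described above at AGAT repeats, had a median of 8 tags in replicate 1 and 7 in replicate 2. Their range was 5 to 18 and 5 to 30, and the peak of 30 tags was the one that overlapped a TCTA peak of replicate 1. Some peaks away from AGAT repeats lay at overlapping places in both lists. Of these, a peak in intron 9 of 45 (9213994 to 9214070 in replicate 1) had 15 and 6 tags. Another, on an L1MB8 element near 8909746, had 10 and 10. Peaks in intron 7 near 9672606 had 8 and 8 tags, and a peak in intron 2 near 10607936 had 8 and 6. The AGAT peaks, 5 in replicate 1 and 4 in replicate 2, held 24 to 43 and 12 to 36 tags, and all of them overlapped a peak of the other list.

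PTPRD peaks fell mostly in the stretch that belongs to 1 transcript, which is also the longer part of the PTPRD span. The counts make no allowance for that length, so they show no preference for the stretch. The intron numbers of both genes fell as coordinates rose, so their first exons lie at the high-coordinate end. Of the PTPRD peaks, 27 of 35 in replicate 1 and 15 of 21 in replicate 2 lay at or above 8909746 and were assigned to the transcript NM_002839 alone. The other 8 and 6 lay at or below 8723389 and were assigned to 6 transcripts at a time. Among the AGAT peaks, 1 in each replicate lay in the stretch of all 6 transcripts and the others in that of the long transcript alone. Every PTPRN2 peak inside the gene was assigned to the same 3 transcripts.

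Fold enrichment separated the genes more than tags did. The median tag count was 7 in both replicates for PTPRN2 and 9 and 7 for PTPRD, against 9 and 8 over all peaks. The median fold enrichment was 53.9 and 54.4 for PTPRN2 and 23.3 and 25.6 for PTPRD, against 53.9 and 54.4 over all peaks. The whole range was 11 to 202 and 12.8 to 150 for PTPRN2 and 15.7 to 82.9 and 14.7 to 70.8 for PTPRD. The upper quartile of PTPRD, 31.1 and 31, lay below the lower quartile of all peaks, 40.5 and 40.2.

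The background used by the peak caller differed with them. Where the input of a region is at or below the genome-wide level, the caller divides by that level, and the fold is then a whole multiple of 13.5 in replicate 1 or 13.6 in replicate 2. Within a tolerance of 0.006, this held for 44 of 61 PTPRN2 peaks in replicate 1 (72.1%, 59.8% to 81.8%) and 26 of 36 in replicate 2 (72.2%, 56% to 84.2%), against 38.9% and 37.4% over the whole lists. It held for 0 of 35 and 0 of 21 PTPRD peaks, for which the intervals reach up to 9.89% and 15.5%. The local input therefore entered the fold of every PTPRD peak. The same was true of the 10 and 3 peaks and the 12 and 12 peaks in its 1 Mb flanks, of which 0 were at the genome-wide background. On the rest of chromosome 9, 56.6% and 57.9% of peaks were at that background, and on the rest of chromosome 7 outside PTPRN2 and its flanks 77.3% and 74.6%. What sets the level of the local input around PTPRD was not tested.

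**Figure D3:**
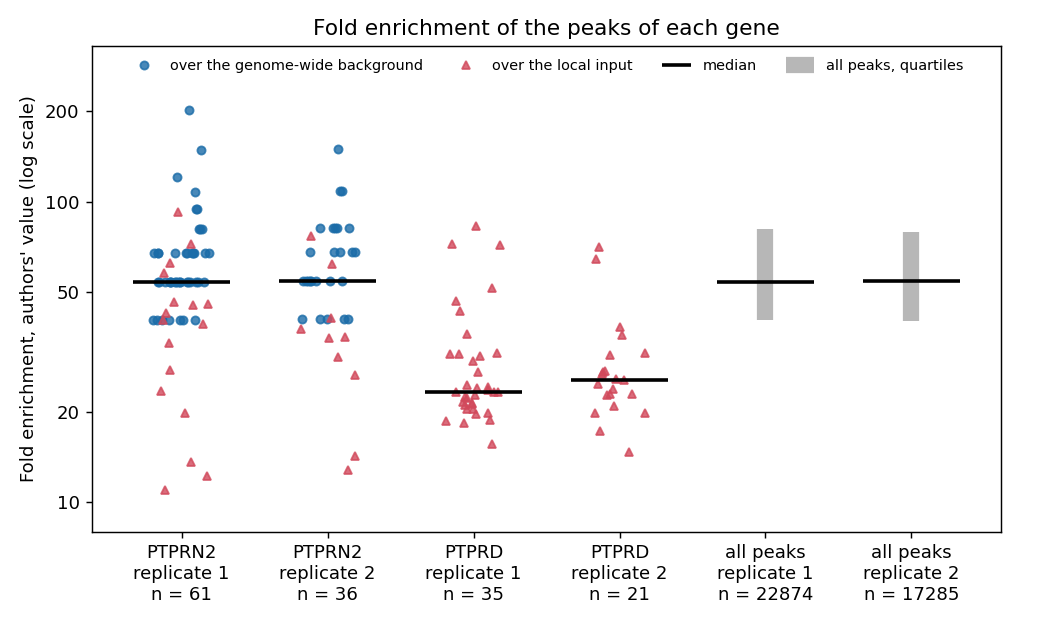
Fold enrichment (authors' value, log scale) of each peak of PTPRN2 and PTPRD by replicate, with the median as a line, beside the median and quartiles of all peaks. Circles are folds over the genome-wide background and triangles folds over the local input, and all 35 and 21 PTPRD peaks are triangles.

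On AGAT repeats alone, PTPRD peaks had many tags and a modest fold. Their median was 27 tags in replicate 1 and 20.5 in replicate 2, against 15 and 13 over all AGAT peaks of the lists. Their median fold enrichment was 71.6 and 51.3, against 85.9 and 77.9. These folds are not over the same kind of background. Of the PTPRD AGAT peaks 0 of 5 and 0 of 4 had folds over the genome-wide background, against 48.4% and 46.1% of all AGAT peaks. The PTPRD medians rest on 5 and 4 peaks, and no test was made.

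Peak widths did not separate the genes. The median width was 69 bp in replicate 1 and 63 bp in replicate 2 for PTPRN2, and 74 bp and 61 bp for PTPRD, against 70 bp and 69 bp over all peaks. The widest PTPRN2 peaks had 397 bp and 296 bp, and the widest PTPRD peaks had 161 bp and 220 bp. The caller's length d, which enters its genome-wide background, was 20 bp, shorter than the 36 bp tag. Widths and folds depend in part on that setting.

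The share of peaks at overlapping places of the replicates was similar in both genes. In replicate 1, 28 of 61 PTPRN2 peaks (45.9%, 34% to 58.3%) and 17 of 35 PTPRD peaks (48.6%, 33% to 64.4%) overlapped a replicate 2 peak by at least 1 bp, against 54% over the list. In replicate 2, 26 of 36 PTPRN2 peaks (72.2%, 56% to 84.2%) and 16 of 21 PTPRD peaks (76.2%, 54.9% to 89.4%) overlapped a replicate 1 peak, against 77.6%. All of these shares were near the background. A single input library served for both lists, which are therefore not fully separate measurements.

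The peaks that did not overlap were more often near a peak of the other list in PTPRN2 than in PTPRD, as a count with no test. No allowance was made for density, which was 67.9 and 40.1 peaks per Mb in PTPRN2 and 15.1 and 9.48 in PTPRD. Denser peaks are more often near another peak, and the genes were chosen by their number of peaks. The contrast is therefore partly set by that choice and does not show closer agreement of the replicates in PTPRN2. Of the 33 such PTPRN2 peaks in replicate 1, 20 lay within 500 bp of a replicate 2 peak, and of the 18 PTPRD peaks 5 did. That is 60.6% and 27.8%, against 54.4% of the 10521 such peaks of the whole list. In replicate 2 the counts were 7 of 10 for PTPRN2 and 2 of 5 for PTPRD, or 70% and 40%, against 50.1% of 3869. Counting overlapping and near peaks together, the share was 78.7% and 91.7% for PTPRN2 and 62.9% and 85.7% for PTPRD, against 79% and 88.8% over the lists.

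By sites, PTPRN2 had 15, of which 10 held a peak in both replicates, and PTPRD had 26, of which 12 did. That is 66.7% and 46.2%, against 58% of the 13574 sites of the whole lists. A site counts as found in both even where no peak overlapped a peak of the other list. Examples are 157939705 to 157941833 in PTPRN2 and 10146206 to 10146438 in PTPRD. These shares make no allowance for the number of peaks per site. PTPRN2 sites held a mean of 4.69 peaks in replicate 1 and 3 in replicate 2, and PTPRD sites held 1.52 and 1.4, against 1.92 and 1.82 over all sites. The median site was 663 bp long in PTPRN2 and 77.5 bp in PTPRD. At 20 of the 26 PTPRD sites, and at 3 of the 15 PTPRN2 sites, neither list had more than 1 peak.

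Sites seen in a single replicate held few tags. Among them the highest total was 12 tags in PTPRN2 and 11 in PTPRD, and the lowest was 5 in each. Of these sites, 3 of PTPRN2 and 11 of PTPRD were in replicate 1 alone, and 2 and 3 in replicate 2 alone. Sites found in both held 96.6% and 96.2% of the tags in PTPRN2 peaks and 81.1% and 93.8% of those in PTPRD peaks.

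Replicate 2 had fewer tags than replicate 1 at most sites. Replicate 1 was higher at 8 of the 10 PTPRN2 sites found in both and at 9 of the 12 PTPRD sites, and the totals were equal at 1 and 2. The median ratio of replicate 2 to replicate 1 was 0.638 for PTPRN2 sites, from 0.0794 to 1.1, and 0.75 for PTPRD sites, from 0.4 to 1.75. Over all member peaks the ratio of tags was 0.577 for PTPRN2 (444 and 769 tags) and 0.62 for PTPRD (256 and 413 tags), against 0.65 over the lists. The libraries were of nearly equal depth, at 10010819 tags kept in replicate 1 and 9926271 in replicate 2.

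**Figure D4:**
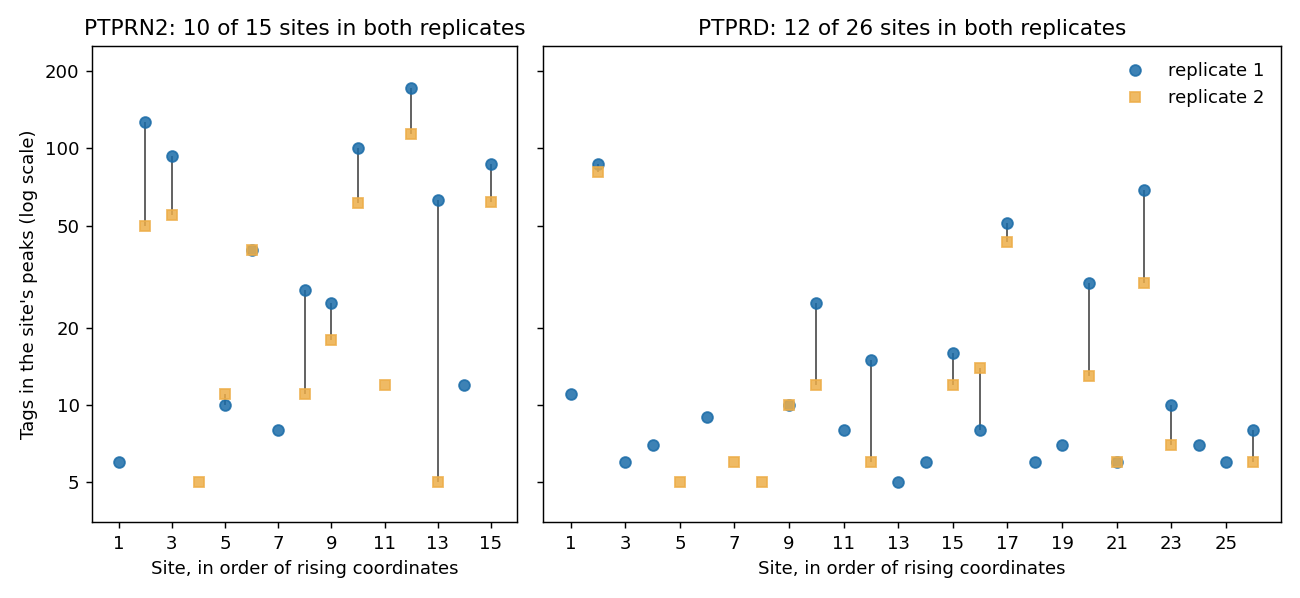
Tags summed over the peaks of each site (log scale), in order along PTPRN2 (left) and PTPRD (right), with circles for replicate 1 and squares for replicate 2; a line joins sites found in both. Sites with a single symbol hold at most 12 tags in PTPRN2 and 11 in PTPRD.

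Other receptor tyrosine phosphatase genes carried fewer peaks than PTPRN2 and PTPRD, which were chosen by their number of peaks. Of 18 further members of the family, 15 were named in either list, 11 had a peak inside the gene, and 9 had one that overlapped between the replicates. That is 60% of those named, against 20.4% of the 10830 genes named in the lists, and gene length, which differs between these sets, was not taken into account. The median of the named members was 2 peaks inside the gene in replicate 1 and 1 in replicate 2, against 0 and 0 over all genes named. PTPRT had 7 and 3 peaks inside, PTPRE 3 and 4, PTPRB 2 and 2, and PTPRO, PTPRR and PTPRU 3 and 1 each. PTPRC, which encodes the leukocyte antigen CD45, had 2 and 1, as did PTPRG and PTPRK, and PTPRM and PTPRS had 1 and 1. The largest peak among them was one of PTPRE, with 37 tags in replicate 1, where PTPRE reached 17 in replicate 2. PTPRS, of the LAR family like PTPRD, had 1 peak of 5 tags in each replicate, which did not overlap, and PTPRF, also of that family, had 0 inside the gene. PTPRN, the closest relative of PTPRN2, was named for 0 peaks.

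**Figure D5:**
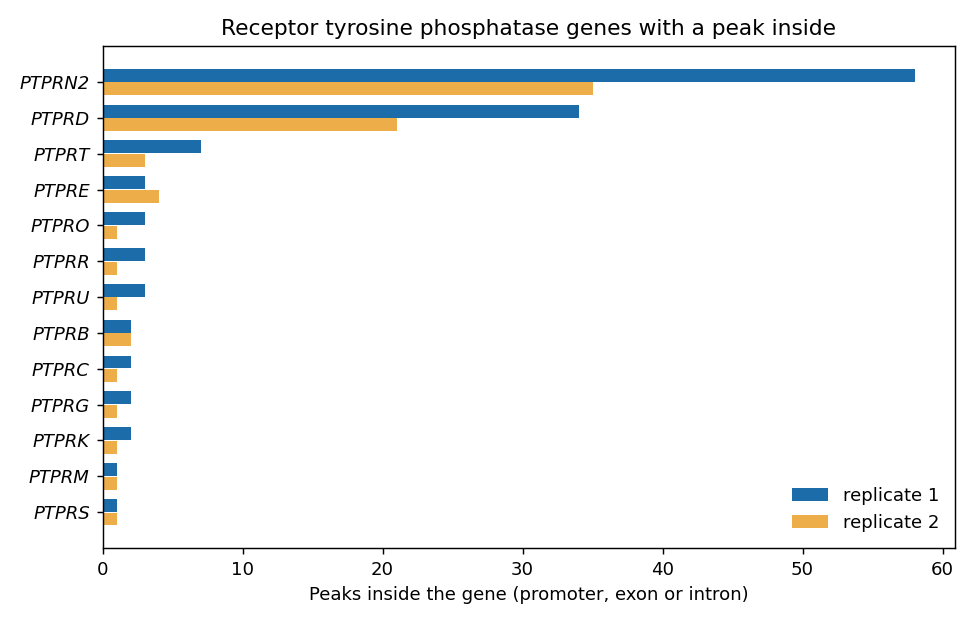
Peaks inside the gene (promoter, exon or intron) for the 13 receptor tyrosine phosphatase genes with any, with PTPRN2 and PTPRD at the top and replicates as separate bars. PTPRN2 has 58 and 35 and PTPRD 34 and 21. The next gene by replicate 1, PTPRT, has 7 and 3, and the next by replicate 2, PTPRE, has 3 and 4.

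Of 15 genes of liprins and of partners of PTPRD or its LAR family, 9 were named and 4 had a peak inside, all 4 with an overlap between replicates. That is 44.4% of those named, against 20.4% of all genes named, on 9 genes and with no allowance for length. PPFIA2, which encodes a liprin alpha scaffold protein, had 5 peaks in replicate 1 and 4 in replicate 2, with up to 23 and 11 tags. IL1RAPL1, a synaptic ligand of PTPRD, had 3 and 4, all on tandem repeats, with up to 19 and 18 tags. IL1RAP had 3 and 2, and NTRK3, a neurotrophin receptor that binds a receptor of the LAR family, had 2 and 1. Among 14 genes of dense-core vesicles, 10 were named and 4 had a peak inside, 2 of them with an overlap. At 20% of those named, this list was at the background of 20.4%. CADPS, a priming factor for vesicle release, had 5 and 4 peaks with up to 20 and 12 tags. PCSK2, a prohormone convertase, had 2 and 1 with up to 25 and 18 tags, and SCG3 and SCG5 had 1 peak of 5 tags each, in replicate 2 alone.

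The genes were also compared with others by the make-up of their peaks. The measure was the sum of absolute differences in the shares of 8 repeat classes among replicate 1 peaks inside the gene, divided by 2, over 23 other genes with at least 20 such peaks, where 0 is identical and 1 shares no class. Nearest to PTPRN2 were C22orf34 at 0.0874, CDH4 at 0.255 and PRKAR1B at 0.26. C22orf34 had 28 such peaks, with 7 on ATCC, 8 on other simple repeats and 6 on LINE elements. Nearest to PTPRD were CSMD3 at 0.209, NTM at 0.268 and NBPF20 at 0.332. CSMD3 had 22, with 5 on AGAT, 4 on LINE elements and 9 with no repeat label. PTPRN2 and PTPRD lay 0.634 apart. PTPRD ranked 20 of the 23 genes by likeness to PTPRN2, and PTPRN2 ranked 13 of the 23 by likeness to PTPRD.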

How the data were processed

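Tools named in the submitters' processing notes are MACS 1.4, Bowtie2, Trimmomatic 0.36 and bcl2fastq 02.14.01.07, with the build hg19. Per the file headers, MACS 1.4.2 called peaks in each replicate against the 1 input library (74780414 tags kept), at a p-value cutoff of 1e-05, with 1 tag kept per position, the larger library scaled to the smaller, and a local background over 1000 bp and 10000 bp. The authors then filtered and annotated the lists; the sources used here do not give the filter's rule. Per the file headers, the deposited values are counts of tags in a peak, fold enrichment as a ratio, and a false discovery rate as a percent, which was 0 throughout. The deposited score, whose column name was lost, was read from its values as a scaled −log10 of the p-value.

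Coordinates are the deposited hg19 ones, counted from 1. Overlaps, sites and shares were computed with pandas 2.3.3, and Wilson intervals with scipy 1.17.1. The overlap and site code was tested on simulated data. Each comparison is a description; no test was run. Genes named were the 2 members, list members with a peak inside the gene, and for each member the 3 genes nearest in repeat make-up; CAMTA1, SHANK2, CSMD1, PTPRF and PTPRN were added after their values were seen. Symbols of the 3 gene lists were matched as written. The members and lists were chosen with earlier results of these data known. Alternatives were a stricter p-value, peaks inside the gene, other overlaps, merged regions, stronger peaks and leaving out a replicate. No hg19 sequence was used here.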

Additional observations from a re-analysis of the deposited data

How the results depend on the processing

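No paired analysis was possible because the only group with replicates is the YBX1 immunoprecipitation and no test was run. With peaks limited to p-values of 1e-10 or less, the mean peaks per replicate were 19.5 for PTPRN2 and 7.5 for PTPRD, against 48.5 and 28 in the full lists, and 32 and 2.5 among the stronger 50% by fold. At that stricter p-value, simple repeats held 69.6% of PTPRN2 and 59.8% of PTPRD peaks (57.3% and 19% in the full lists), median tags were 16 and 25.3, median fold 74.5 and 42.7, median width 108 bp and 105 bp, and 87.5% and 100.0% of PTPRD peaks were shared in replicates 1 and 2. Among shared peaks of the full lists, simple repeats held 61% for PTPRN2 and 27.2% for PTPRD. The shares over all peaks at these settings are not given here, so the gene shares have no background beside them. At the stricter p-value the PTPRD shares rest on a mean of 7.5 peaks per replicate. With more than 5 tags, PTPRN2 medians were 9 tags, a fold of 60.5 and a width of 77.3 bp. With summits within 50 bp, 26.2% and 44.4% of PTPRN2 peaks were shared, and with overlap of 50% of the shorter peak 55.6% in replicate 2. The cause of these shifts was not tested. Leaving out each replicate gave 36 to 61 peaks for PTPRN2 and 21 to 35 for PTPRD. The other 50 of 72 values moved by less than the replicate spread, the counting interval or 1.5 times, site gaps of 500 bp and 10000 bp included, which were added after the data were seen. Most peaks hold under 20 tags, so a peak missing from a list is not shown to be absent from the cells.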

Other observations

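The annotation assigned peaks near PTPRD to antisense RNA genes, which are not counted among the PTPRD peaks. PTPRD-AS2 had an intronic peak on an MLT2B2 element, on chromosome 9 from 10617502 to 10617565 (hg19) in replicate 1, with 12 tags there and 8 tags in the overlapping replicate 2 peak. PTPRD-AS1 had a promoter peak of 5 tags at 8857805 to 8857850 in replicate 2 alone.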
